A study of Mus musculus with 109 samples.

Results

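The response described here is that of brain microglia from doubly floxed control mice 6 h after lipopolysaccharide (LPS, a cell wall component of Gram-negative bacteria). It rests on 11 RNA libraries of the series' 89 RNA and 20 ATAC libraries: 5 libraries taken 6 h after LPS and 6 from untreated animals. They were chosen by their titles, and no measured value was used. All 11 carried the genotype IL10Rafl/fl:TNFfl/fl, in which the genes of the IL-10 receptor alpha chain and of tumour necrosis factor are flanked by loxP sites, and their labels name no Cre. The 6 h animals received LPS at 2.5 mg/kg, given peripherally, and the untreated group is labelled as steady state. Age and sex were not given in the sources used here.

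The libraries came from separate experiments that the column labels name, called here "second" (3 untreated and 3 at 6 h) and "post" (3 untreated and 2 at 6 h). The groups set beside them were doubly floxed controls 48 h after LPS (6 libraries), double mutants CX3CR1-CreER:IL10Rafl/fl:TNFfl/fl untreated (5) and at 6 h (6), and singly floxed controls IL10Rafl/fl untreated (6) and at 6 h (6). The column of untreated double mutant library 4 carries the word "mistake" in its name, with no explanation in the sources used here, and the library was kept. In the double mutants a tamoxifen-inducible Cre is driven from the Cx3cr1 locus, which is active in microglia and in other Cx3cr1-expressing cells. Cells were sorted on CD45 and CD11b, and transcripts were counted by MARS-seq, which reads the 3′ end of polyadenylated RNA.

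Microglia are the resident macrophages of the brain. LPS is recognised by TLR4 with its partners CD14 and MD-2, and the adaptors MyD88 and TRIF pass the signal to NF-kB and to interferon regulatory factors. The first branch drives cytokines and chemokines, the second type I interferon and its target genes, and both raise their own inhibitors. LPS in the periphery also reaches microglia indirectly, through cytokines and stress hormones. In the resting brain microglia express a characteristic set of receptors and transcription factors, among them P2ry12, Tmem119 and Sall1.

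The 6 untreated libraries held 583560 to 1410234 recovered reads and the 5 libraries at 6 h held 737588 to 2041325. The difference in depth had an exact permutation p of 0.108, where the smallest p that 6 against 5 libraries allow is 0.00433. That test took no account of the experiment, so it does not show that depth was balanced. Within the second experiment every 6 h library (1853914 to 2041325 reads) was deeper than every untreated one (1182316 to 1410234). Within post the ranges overlapped (737588 to 964473 and 583560 to 811131). Genes detected numbered 11873 to 12388 without LPS and 12169 to 12771 at 6 h (exact permutation p = 0.0303). Markers of microglia were present in every library: Cx3cr1 ran from 4661 to 5685 normalised reads without LPS and from 2058 to 2905 at 6 h, and Tmem119 from 3305 to 4348 and 1456 to 2160.4. Libraries stood apart on markers of other cells. The 6 h library 3 summed to 7043 normalised reads over the neutrophil markers, against 222 to 495 in the other 6 h libraries and 434 to 1147 in the untreated ones. Haemoglobin genes of red cells summed to 2671 in untreated library 3 and to 808 in 6 h library 4, against 0 to 30.5 in the other 9. Without untreated library 3 the count of changed genes given below was 4714, and without 6 h library 3 or 4 it was 4672 and 4679. Monocyte markers summed to 13.6 to 44.0 without LPS and to 129 to 685 at 6 h (exact permutation p = 0.00433), and border macrophage markers to 821 to 1026 and 1200 to 1370 (exact permutation p = 0.00433). Gene by gene the border macrophage markers did not follow that sum: of 10 tested 2 rose and 2 fell, with a list median of -0.78 on the log2 scale. Lymphocyte and oligodendrocyte marker sums were lower at 6 h (exact permutation p = 0.00433 each), and those of neurons and astrocytes had p-values of 0.0216 and 0.0606 in the same exact test. The labels do not say that each library is a separate animal, so p-values measure the spread between these libraries. In bulk libraries fewer cells of a type and less RNA per cell cannot be told apart.

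By 6 h, 5039 of 11800 tested genes had changed (42.7%; limma with Benjamini-Hochberg adjustment, adjusted p under 0.05). Higher at 6 h were 2548 genes, 21.6% of those tested, and lower were 2491, 21.1%. Counts of list genes below are to be read beside these shares. The lists were chosen with earlier results of these data known. The median log2 fold change over all tested genes was 0.012. A log2 fold change of at least 1 was reached by 1309 of the higher genes and by 1378 of the lower ones. At 3 and beyond the numbers were 167 higher and 65 lower. Within each experiment alone, 2532 of the 2548 and 2484 of the 2491 had the same sign as in the whole fit. These genes were called on the same libraries, so much of that agreement was fixed by the selection. The post experiment alone called 3121 genes, 2817 of them among the 5039. The 6 h and untreated libraries did not overlap for 1620 tested genes above (13.7%) and 1639 below (13.9%). Values below are normalised reads, as mean ± SD or per library (for the 6 untreated libraries the lowest, the median and the highest), and log2 fold changes carry their standard error.

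The largest rise by the naming rule was that of Il1rn, which encodes the antagonist of the IL-1 receptor. Its untreated values were 0, 2.33 and 4.45, and libraries 1 to 5 at 6 h had 498, 702, 567.7, 464 and 269 (log2 7.37 ± 0.48, adjusted p = 9.2e-16). The groups lay far apart, and the lowest 6 h value came from the post experiment. Spp1, the secreted phosphoprotein osteopontin, had 1.69, 4.14 and 10.2 without LPS and 465, 394, 558, 542 and 572 at 6 h (log2 6.65 ± 0.33, adjusted p = 1e-18). Trem1, a receptor that amplifies Toll-like receptor signalling, had 0, 1.33 and 3.38 and then 235, 240.2, 206, 182 and 235 (log2 6.56 ± 0.42, adjusted p = 7.5e-16). In both genes every 6 h library exceeded the highest untreated library by more than an order of magnitude. Plet1, a surface protein, went from 0.945 ± 0.806 to 184 ± 33.9 (log2 6.68 ± 0.49, adjusted p = 3.3e-14), Ehd1, an endocytic recycling ATPase, from 4.11 ± 2.37 to 319 ± 87.5, and Ccr7, a homing receptor of migrating immune cells, from 0.282 ± 0.691 to 63.0 ± 26.1. The metallothionein Mt2 went from 21.1 ± 10.7 to 1493 ± 694, the acute phase protein Saa3 from 53.1 ± 29.1 to 2566 ± 477, and the costimulatory receptor Cd40 from 0.736 ± 0.879 to 71.3 ± 22.2. Ccl5, Cxcl2 and Il1b complete the 12 largest rises and are described with their families.

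The largest fall was that of Cbfa2t3, a transcriptional corepressor. It had 66.8, 82.4 and 103 without LPS and 1.65, 1.06, 0.526, 1.50 and 2.33 at 6 h (log2 -5.15 ± 0.40, adjusted p = 1.4e-13). Gpr34, a receptor for lysophosphatidylserine that is typical of microglia, had 1108, 1181 and 1463 and then 29.7, 32.7, 36.8, 88.6 and 87.3 (log2 -4.56 ± 0.40, adjusted p = 3.5e-12). The groups were apart in both genes, and the post libraries kept the higher Gpr34 values at 6 h. Tnfrsf17, a receptor for the cytokines BAFF and APRIL, went from 46.1 ± 8.43 to 0.977 ± 1.002, Tmem52 from 106.6 ± 35.8 to 3.99 ± 1.35 and the tetraspanin Tspan18 from 113.1 ± 31.1 to 4.72 ± 3.26. Myo18b fell by 4.28 on the log2 scale, the sulfotransferase Chst8 by 4.06, Thrsp by 3.94, the integrin adaptor Tln2 by 3.93 and the oxidase maturation factor Duoxa1 by 3.90. Plxna4, a semaphorin receptor, fell by 3.89 and Npnt, a matrix protein, by 3.88.

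**Figure D1:**
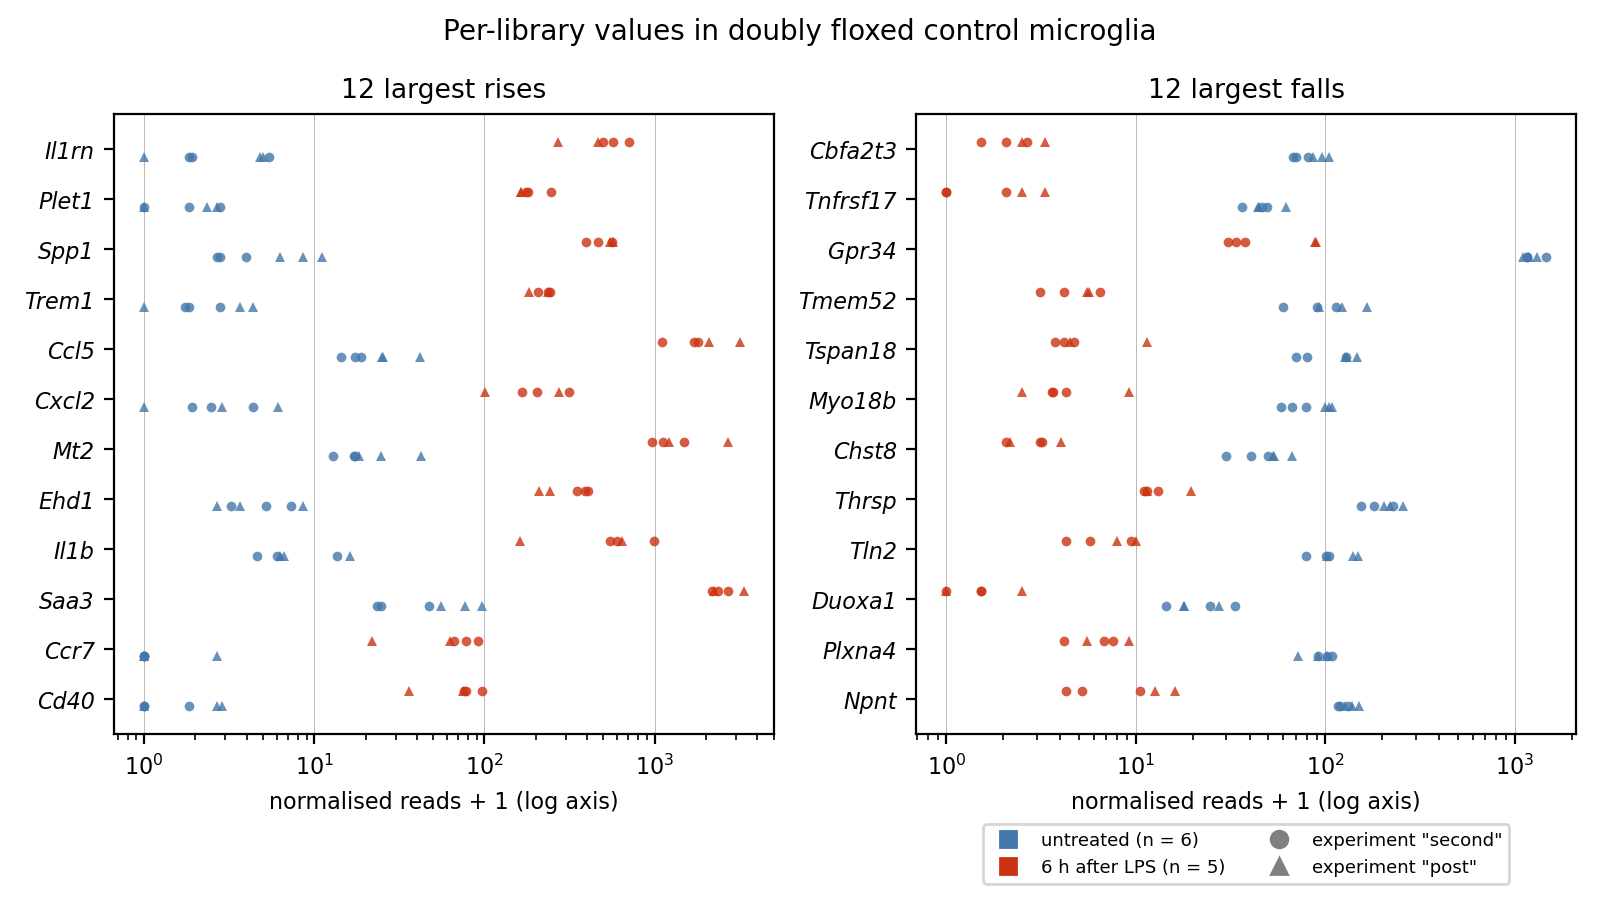
Normalised reads plus 1 on a log axis for the 12 largest rises and the 12 largest falls, 1 point per library (blue untreated, n = 6; red 6 h after LPS, n = 5; circles "second", triangles "post"). The 2 colours do not overlap for any of the 24 genes; Il1rn runs from 0 to 4.45 without LPS and from 269 to 702 at 6 h.

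Of 20 tested genes of LPS sensing, 9 rose and 2 fell. The receptor complex itself split. Cd14, the co-receptor that hands LPS to the complex, had 741, 841 and 926 without LPS and 5582, 7579.8, 6094, 5842 and 6472 at 6 h (log2 2.90 ± 0.14, adjusted p = 5.4e-19). Tlr4 had 35.8, 56.5 and 75.1 and then 24.2, 22.2, 25.3, 31.5 and 26.8 (log2 -1.06 ± 0.23, adjusted p = 0.00026), and Ly96, which encodes MD-2, had 16.9, 31.3 and 35.6 and then 4.96, 8.44, 5.79, 12.02 and 12.8 (log2 -1.61 ± 0.41, adjusted p = 0.0016). All 5 libraries at 6 h were above the untreated range for Cd14 and below it for Tlr4 and Ly96. Within the post experiment alone neither Tlr4 (-0.64, adjusted p = 0.107) nor Ly96 (-0.82, adjusted p = 0.137) was called. Tlr2, the receptor for bacterial lipopeptides, rose from 168 ± 19.2 to 1699 ± 404 and the adaptor Myd88 by 0.97 on the log2 scale. Rises were also called for the kinase Map3k8 (2.77) and for Irak3 (2.00), a catalytically inactive brake on the pathway. The kinases Irak1 (0.20) and Irak4 (0.29) and the ligase Traf6 (0.03) did not pass the test, and their groups overlapped.

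NF-kB is a family of dimeric factors held in the cytoplasm by inhibitor proteins that are themselves its targets. Of 21 tested subunits, kinases and inhibitors, 14 rose and 2 fell. Nfkbia, which encodes IkB-alpha, had 381, 670.5 and 955 without LPS and 3748, 4509, 3662, 4397 and 3358 at 6 h (log2 2.65 ± 0.23, adjusted p = 3.8e-12). Bcl3, a nuclear member of the inhibitor family, went from 12.4 ± 4.31 to 204 ± 54.1, Nfkbiz rose by 2.77 on the log2 scale and the ubiquitin editing enzyme Tnfaip3 (A20) by 2.62. Ikbke, a kinase of the interferon branch, went from 2.87 ± 2.89 to 84.0 ± 19.9 (log2 4.78 ± 0.49, adjusted p = 1.4e-10). The subunits of the alternative arm rose by 2.47 (Nfkb2) and 2.17 (Relb), and Rela by 0.34 (adjusted p = 0.0051). Rel (-0.13, adjusted p = 0.71) and Nfkb1 (0.32, adjusted p = 0.13) were not called. Ikbkg, which encodes the scaffold NEMO, fell from 41.1 ± 9.90 to 22.99 ± 3.01, and the deubiquitinase Otulin fell by 0.43 on the log2 scale with groups that overlapped, a call lost without 6 h library 3 (-0.33, adjusted p = 0.0916).

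Among 18 tested cytokines 11 rose, 3 fell and 4 were not called. Tnf, 1 of the floxed genes, had 5.65, 14.4 and 26.7 without LPS and 356, 603, 368, 497 and 172 at 6 h (log2 4.58 ± 0.42, adjusted p = 1.2e-11). Il1b had 3.62, 5.48 and 15.2 and then 548, 986, 601, 646 and 161 (log2 5.91 ± 0.42, adjusted p = 1.8e-14), and Il12b, the shared subunit of IL-12 and IL-23, had 0, 0 and 1.69 and then 73.2, 62.8, 41.0, 72.1 and 32.6 (log2 5.25 ± 0.53, adjusted p = 1e-10). In all 3 genes the groups were apart, and library 5, from the post experiment, had the lowest 6 h value. Il1a rose by 1.20 on the log2 scale, with 6 h library 5 (50.1) within the untreated range (30.5 to 77.9). Csf3, the granulocyte growth factor, was at 0 in all 6 untreated libraries and at 3.85, 12.1, 2.63, 13.5 and 19.8 at 6 h, at least 16.9-fold higher against a floor of 3 reads over the untreated group. Il6 had 2.65, 12.5 and 23.7 and then 22.02, 20.6, 18.4, 39.1 and 11.6, which overlapped (log2 0.90 ± 0.43, adjusted p = 0.095). Il10, the ligand of the floxed receptor, was at 0 in all untreated libraries and had 0.551, 0, 0, 1.50 and 0 at 6 h, too few reads to compare. Tgfb1 fell from 405 ± 105 to 168 ± 43.8, Ltb (lymphotoxin beta) from 33.7 ± 6.44 to 10.6 ± 3.03, and Il15 from 27.9 ± 12.04 to 9.82 ± 4.68 with groups that overlapped.

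Of 21 tested chemokines 18 rose and 1 fell, with a list median of 2.80 on the log2 scale. With the 4 members that were at 0 in every untreated library set to their lower bound, the median was 2.97. Ccl5, which attracts T cells and monocytes, had 13.4, 20.8 and 40.6 without LPS and 1102, 1801, 1709.5, 3191 and 2099.9 at 6 h (log2 6.44 ± 0.24, adjusted p = 1.4e-22). The neutrophil attractant Cxcl2 had 0, 1.68 and 5.08 and then 166, 314, 202, 272 and 100.1 (log2 6.14 ± 0.54, adjusted p = 3.5e-12), and its relative Cxcl1 had 0, 0.846 and 3.77 and then 37.4, 42.2, 23.2, 138.2 and 98.9 (log2 4.99 ± 0.42, adjusted p = 8.6e-13). The groups did not overlap for these 3 genes. Both post libraries had more Cxcl1 than any second library at 6 h, whereas Cxcl2 was lowest in 1 of them. Cxcl10, a ligand of CXCR3, had 11.8, 21.2 and 43.4 and then 397, 819.7, 561, 643 and 463 (log2 4.55 ± 0.42, adjusted p = 1.2e-11), and the monocyte attractants Ccl2 and Ccl12 went from 57.1 ± 7.15 to 454 ± 145 and from 216 ± 61.8 to 3113 ± 795. Ccl9 rose by 4.20, Cxcl13 by 3.53, Cxcl16 by 2.21, Ccl3 by 2.16 and Ccl4 by 2.77. The eosinophil attractant Ccl24 went the other way, from 10.1 ± 1.70 to 1.96 ± 1.59 (log2 -2.09 ± 0.42, adjusted p = 9.5e-05), and Ccl6 (-0.26) and Ccl8 (0.00) were not called.

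The promoter windows of 3 strongly induced genes are shown because they hold the kB consensus, the sequence that NF-kB dimers bind. Each is the 250 bases before the RefSeq start site (build GRCm38.p6), read 5′ to 3′ on the gene's strand, with motif matches in capitals. Cxcl2 lies on the plus strand (chr5:90903649-90903898), and Cxcl10 (chr5:92348890-92349139) and Nfkbia (chr12:55492648-55492897) on the minus strand.
Cxcl2: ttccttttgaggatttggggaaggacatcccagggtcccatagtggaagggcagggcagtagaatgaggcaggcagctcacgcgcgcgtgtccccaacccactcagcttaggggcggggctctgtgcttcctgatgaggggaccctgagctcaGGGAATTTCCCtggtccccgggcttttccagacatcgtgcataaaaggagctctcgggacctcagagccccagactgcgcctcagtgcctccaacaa
Cxcl10: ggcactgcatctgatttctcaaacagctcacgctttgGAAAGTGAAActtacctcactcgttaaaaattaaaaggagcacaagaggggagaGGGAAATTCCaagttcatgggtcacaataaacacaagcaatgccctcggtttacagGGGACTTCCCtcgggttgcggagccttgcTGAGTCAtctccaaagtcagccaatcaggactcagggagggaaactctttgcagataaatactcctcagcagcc
Nfkbia: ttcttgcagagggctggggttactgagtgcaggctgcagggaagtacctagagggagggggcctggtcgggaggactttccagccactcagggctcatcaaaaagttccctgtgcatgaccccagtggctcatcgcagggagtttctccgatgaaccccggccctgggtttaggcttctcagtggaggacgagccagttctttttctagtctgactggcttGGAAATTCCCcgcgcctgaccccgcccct
In Cxcl2 a run of 11 bases matched the consensus on both strands, at -97 to -88 and at -96 to -87 from the start. Cxcl10 held kB matches at -159 to -150 and -103 to -94, an interferon stimulated response element (2 copies of GAAA with any 2 bases between) at -213 to -204 and an AP-1 motif (TGANTCA) at -74 to -68. Nfkbia held 1 kB match on the other strand at -29 to -20. Among other strongly induced genes, the windows of Tnf, Il1b, Il1rn and Saa3 held no kB match, while that of Cxcl1 did. The kB consensus was held by 5 of 14 chemokine promoters (35.7%) and by 10 of 23 promoters (43.5%) of 17 NF-kB list genes. The share was 3.9% of all 32851 promoters and 4.53% of 11121 promoters of tested genes. It was 6.68% for genes that rose and 5.52% for genes that fell by at least 1 on the log2 scale. Both strands were searched and matches may overlap; a match describes these letters only.

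Cytokine receptors went in both directions: of 27 tested, 9 rose and 7 fell, against 21.6% and 21.1% of all tested genes. The decoy receptor Il1r2 had 0, 1.22 and 5.65 without LPS and 67.2, 51.2, 66.8, 60.1 and 52.4 at 6 h (log2 4.72 ± 0.75, adjusted p = 2.2e-06). Il2rg, the common gamma chain, went from 2.71 ± 2.11 to 63.0 ± 6.15, Il4ra rose by 2.82 and Il15ra by 3.01 on the log2 scale. Il10ra, the other floxed gene, had 409.6, 489.8 and 533 and then 339.7, 445, 407, 272 and 237. The groups overlapped, since the highest 6 h library lay within the untreated range, and the change did not pass the test (log2 -0.61 ± 0.27, adjusted p = 0.061, 95% interval -1.15 to -0.07). Its partner chain Il10rb fell by 0.37 on the log2 scale (adjusted p = 0.016) with groups that overlapped, and the call was lost without 6 h library 5 (-0.27, adjusted p = 0.0989), without the experiment term, within post alone and with thinned reads. Csf1r, the receptor for the survival factor of microglia, fell from 8962 ± 427 to 5948 ± 461, and Cx3cr1, the fractalkine receptor, from 5259.7 ± 377 to 2404 ± 329 (log2 -1.15 ± 0.20, adjusted p = 9.4e-06).

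Inhibitors of cytokine, kinase and messenger RNA signals were also induced, 14 of 21 tested with 1 lower. Dusp2, a phosphatase of MAP kinases, had 5.08, 9.78 and 18.8 without LPS and 277, 489.8, 338, 254 and 158.3 at 6 h (log2 4.66 ± 0.38, adjusted p = 4e-13). Socs3, which limits STAT3 signalling, had 176, 219 and 249 and then 1331, 2299, 1999, 1235 and 1094 (log2 2.77 ± 0.18, adjusted p = 7.5e-16). The groups were far apart in both, with the post libraries at the lower end of the 6 h values. Rises of 3.80 for Socs2, 2.80 for Cish, 2.31 for the ribonuclease Zc3h12a (regnase-1) and 2.00 for Dusp1 were also called. Socs1 rose by 1.24 with groups that overlapped. Zfp36, which encodes the messenger RNA decay factor tristetraprolin, had a log2 fold change of 0.07 and was not called (adjusted p = 0.83). Pias1 fell by 0.74 on the log2 scale.

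All 32 tested interferon response genes rose, against 21.6% of all tested genes, with a list median of 1.99 on the log2 scale. Isg15, an interferon-induced ubiquitin-like modifier, had 18.5, 30.1 and 35.8 without LPS and 149, 400.1, 444, 547 and 604 at 6 h (log2 3.79 ± 0.28, adjusted p = 2.5e-14). The antiviral RNA binder Ifit1 had 2.97, 8.87 and 11.7 and then 51.2, 106.6, 64.7, 88.6 and 166 (log2 3.55 ± 0.47, adjusted p = 5.3e-08), and the membrane protein Ifitm3 had 13.6, 21.1 and 49.1 and then 157, 225, 174, 413 and 283 (log2 3.43 ± 0.29, adjusted p = 1.2e-12). No 6 h library fell within the untreated range for these 3, and library 1 had the lowest value of each. Oasl1, an oligoadenylate synthetase-like protein, rose most (4.74), followed by Isg15, Ifit1 and Slfn2 (3.55). At the lower end stood Herc6 (0.96), Ifit2 (1.22) and Dhx58 (1.38). Near-identical copies such as Ifit3 and Ifit3b may share reads and are uncertain one by one.

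Interferon-inducible GTPases and regulators were less uniform. Of 10 tested GTPases 7 rose, led by Gbp2 (3.67) and Gbp5 (2.50), while Irgm2 (0.13) and Gbp9 (-0.51) were not called. Of 18 IRF, STAT and JAK genes 11 rose and 4 fell. Irf7, the factor that amplifies interferon production, had 19.9, 27.7 and 37.7 without LPS and 167, 392, 375, 312 and 285 at 6 h (log2 3.37 ± 0.21, adjusted p = 3.9e-16). All 6 h libraries were above all untreated ones, with library 1 again the lowest of the 5. Stat2 rose by 2.30 and Stat3 by 1.64, whereas Irf8, a lineage factor of microglia, fell by 0.53 with groups that overlapped.

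The promoters of 2 interferon targets and of P2ry12, a resting microglia gene, are shown for the interferon stimulated response element, again with matches in capitals. Isg15 lies on the minus strand (chr4:156200819-156201068), Ifit1 on the plus strand (chr19:34640639-34640888) and P2ry12 on the minus strand (chr3:59262986-59263235).
Isg15: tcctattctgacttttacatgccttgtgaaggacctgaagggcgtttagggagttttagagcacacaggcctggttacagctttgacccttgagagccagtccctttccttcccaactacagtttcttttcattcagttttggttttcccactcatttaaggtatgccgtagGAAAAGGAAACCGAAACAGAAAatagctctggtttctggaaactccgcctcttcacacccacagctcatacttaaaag
Ifit1: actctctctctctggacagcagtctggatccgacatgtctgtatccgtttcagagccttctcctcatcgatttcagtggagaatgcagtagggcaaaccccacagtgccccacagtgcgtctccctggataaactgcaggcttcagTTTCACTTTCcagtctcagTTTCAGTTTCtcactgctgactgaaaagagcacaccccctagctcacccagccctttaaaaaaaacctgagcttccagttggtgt
P2ry12: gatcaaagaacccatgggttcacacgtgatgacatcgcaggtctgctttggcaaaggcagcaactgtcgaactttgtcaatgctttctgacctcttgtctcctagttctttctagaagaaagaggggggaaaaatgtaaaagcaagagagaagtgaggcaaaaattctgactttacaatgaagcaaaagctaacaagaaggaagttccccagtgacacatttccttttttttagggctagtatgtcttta
The Isg15 window held 3 overlapping matches to the interferon stimulated response element, from -78 to -57. The Ifit1 window held 2 on the other strand, at -104 to -95 and -85 to -76, and the P2ry12 window held none of the 3 motifs. Of 29 promoters of 24 interferon response genes, 10 (34.5%) held the element, against 2.98% of all promoters and 2.89% of those of tested genes. The shares were 5.79% for genes that rose and 2.39% for genes that fell by at least 1. None of 28 promoters of 23 resting microglia genes held it or the kB consensus. The shares over promoters of tested genes were 2.89% and 4.53%, from which 0 of 28 cannot be told apart.

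Antigen presentation split by class. Of 23 genes of MHC class I and the immunoproteasome 14 rose and 1 fell. Nlrc5, the class I transactivator, had 0, 5.45 and 10.2 without LPS and 52.9, 77.6, 71.0, 67.6 and 44.2 at 6 h (log2 3.70 ± 0.40, adjusted p = 5.4e-10). H2-K1, a classical heavy chain, went from 517 ± 65.4 to 1173 ± 175 and the peptide transporter Tap1 rose by 1.24, while B2m (0.12) and Psmb8 (0.03) were not called. Heavy chain genes are close relatives, and reads may be split between them. Of 10 class II genes 1 rose and 5 fell. Cd74, the invariant chain, had 29.8, 87.1 and 233 and then 212, 246, 227, 442 and 296 (log2 1.84 ± 0.27, adjusted p = 4.6e-07), where 1 untreated library of the post experiment exceeded 2 libraries at 6 h. H2-Aa had 11.7, 74.0 and 190.1 and then 14.3, 14.8, 10.5, 75.1 and 37.2, which overlapped (log2 -0.94 ± 0.41, adjusted p = 0.064), and all post libraries of each group were above all second libraries of that group. H2-DMb1 fell by 1.41 and H2-DMa by 0.77. The B cell marker Cd79b moved with class II, from 61.7 ± 12.4 to 15.8 ± 6.42 (log2 -1.95 ± 0.27, adjusted p = 1.5e-07), and its part in these values was not tested.

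Costimulatory and adhesion molecules rose in 14 of 19 tested genes and fell in none. Cd40 had 0, 0.422 and 1.88 without LPS and 77.1, 95.5, 75.2, 73.6 and 34.9 at 6 h (log2 5.47 ± 0.45, adjusted p = 7.5e-13), and the early activation marker Cd69 had 0, 0 and 1.69 and then 17.6, 22.7, 16.8, 19.5 and 3.49 (log2 3.49 ± 0.49, adjusted p = 1.8e-07). Both were lowest in library 5, still above every untreated value. The integrin chain Itgal was at 0 in all 6 untreated libraries and had 12.1, 15.8, 17.9, 12.02 and 2.33 at 6 h, at least 19.5-fold higher against the floor of 3 reads over the group. The adhesion receptor Vcam1 rose by 3.40, the death receptor Fas by 3.31, and Cd274, which encodes the checkpoint ligand PD-L1, by 2.55. Cd86 rose by 0.57, while Cd80 (0.67, adjusted p = 0.22) and the integrins Itgam (-0.26) and Itgb2 (0.09) were not called.

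Complement and Fc receptor genes rose in 8 and fell in 2 of 16, against 21.6% and 21.1% of all tested genes. Fcgr4 had 13.5, 18.6 and 28.2 without LPS and 226, 316, 269.9, 275 and 203 at 6 h (log2 3.66 ± 0.19, adjusted p = 2e-18). The anaphylatoxin receptor C5ar1 had 13.5, 15.8 and 18.6 and then 151, 157, 185, 194 and 155 (log2 3.31 ± 0.34, adjusted p = 1.5e-10), and complement C3 had 1.33, 3.80 and 9.41 and then 20.4, 33.8, 38.9, 36.1 and 39.6 (log2 2.91 ± 0.37, adjusted p = 1.9e-08). None of these 3 overlapped between groups. C4b rose by 2.01, whereas the 3 chains of C1q had 0.09 (C1qa), 0.06 (C1qb) and -0.44 (C1qc) and were not called.

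Uptake receptors went in both directions, with 10 of 23 tested genes higher and 8 lower. The scavenger receptors Msr1 (5.02) and Marco (3.06) rose, as did Cd300lf (4.75) and the lectin Clec4d (2.82). The lectin Clec4e, at 0 in all 6 untreated libraries, was at least 8.02-fold higher against the floor of 3 reads over the group. The apoptotic cell receptor Mertk fell by 0.99 and its ligand Gas6 by 1.31, and Axl (-0.13) was not called. Of 21 disease-associated microglia genes 8 rose and 8 fell. Spp1, Ch25h (4.74), Cst7 (2.05) and Csf1 (1.91) were higher. Trem2, the receptor on which that state depends, had 2939, 4202 and 4627 and then 1038, 1112, 1193, 1621 and 1611 (log2 -1.55 ± 0.18, adjusted p = 2.3e-09), with every 6 h library below the untreated range. Cd9 fell by 1.24, and Apoe, the lipid carrier, by 0.60 with groups that overlapped, a call lost under quantile normalisation (-0.30, adjusted p = 0.183).

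Secreted acute phase and matrix proteins rose in 14 of 16 tested genes and fell in none. Saa3, serum amyloid A, had 22.3, 50.4 and 96.0 without LPS and 2181, 2698, 2361, 3341 and 2247 at 6 h (log2 5.79 ± 0.29, adjusted p = 8e-19), and Lrg1 went from 1.46 ± 1.41 to 74.0 ± 22.7. Lcn2, an iron-siderophore binder that neutrophils also carry, had 3.71, 11.5 and 45.7 and then 117, 228, 953, 139.7 and 243 (log2 4.34 ± 0.60, adjusted p = 1.6e-07). Hp, haptoglobin, had 0, 1.03 and 6.77 and then 6.06, 24.3, 150.0, 18.03 and 4.66 (log2 3.13 ± 0.92, adjusted p = 0.0055). Both were highest by far in 6 h library 3, which also held the most neutrophil marker reads. Lcn2 was above the untreated range in all 5 libraries, whereas Hp overlapped.

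Monocyte markers moved with these genes: 4 of 9 tested rose and none fell. Fn1 had 0.844, 2.79 and 5.31 without LPS and 72.1, 85.0, 102.1, 61.6 and 52.4 at 6 h (log2 4.35 ± 0.36, adjusted p = 8.4e-13), and Ms4a4c had 1.88, 5.61 and 7.42 and then 50.1, 72.8, 81.6, 132.2 and 54.7 (log2 3.69 ± 0.30, adjusted p = 4.8e-13). Plac8 had 0, 2.75 and 5.08 and then 16.5, 23.8, 51.6, 24.03 and 9.31, and Ly6c2 had 0, 0.371 and 1.69 and then 2.75, 8.44, 71.6, 1.50 and 1.16. Fn1, Ms4a4c and Plac8 were higher in all 5 libraries at 6 h, and Ly6c2 chiefly in library 3; its call was lost without that library (adjusted p = 0.189) and without 6 h library 2 or untreated library 1, 2 or 3. The defining monocyte receptor Ccr2 had a log2 fold change of 0.28 and was not called (adjusted p = 0.71). Of 10 tested neutrophil markers, Cxcr2 rose, from 0 in all 6 untreated libraries to 16.5, 20.1, 24.2, 9.01 and 12.8, and Csf3r, which microglia also express, fell from 375 ± 84.7 to 199.6 ± 63.4 with 1 library at 6 h in the untreated range. S100a8 (0.93) and S100a9 (0.69) were not called. The neutrophil markers had list medians of 2.35 within the second experiment and -1.49 within post. Within post alone 6 of 7 tested were called lower and 1 higher, against 14.3% and 14.7% of all tested genes. Within the second alone 1 of 6 was called lower and 1 higher, against 26.7% and 25.5%. The second includes 6 h library 3 and post untreated library 4, the libraries of most neutrophil marker reads in their groups. The part of these cells in the rises of secreted and adhesion genes was not tested. Without the library of most neutrophil marker reads in each group (untreated library 4 and 6 h library 3), 4480 genes were called in place of 5039, and 13 acute phase genes were called higher in place of 14.

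Resting microglia genes fell together: 24 of 30 tested were lower and 2 higher, against 21.1% of all genes lower, with a list median of -1.18 on the log2 scale. P2ry12, the ADP receptor that steers microglial processes, had 4538, 4892 and 5576 without LPS and 487, 374, 401, 757 and 652 at 6 h (log2 -3.24 ± 0.17, adjusted p = 5.5e-18). The fructose transporter Slc2a5 had 577, 663 and 770.0 and then 60.0, 52.8, 58.9, 70.6 and 53.5 (log2 -3.47 ± 0.20, adjusted p = 2.1e-17), and the TGF-beta receptor Tgfbr1 had 2142, 2832 and 3300.1 and then 812, 748, 944, 1012 and 1341 (log2 -1.50 ± 0.15, adjusted p = 6.9e-11). All 6 h libraries were below all untreated ones for these 3 genes, and for P2ry12 and Tgfbr1 the post libraries were the highest of the 6 h group. Tmem119 fell from 3838 ± 405 to 1892 ± 271, Siglech by 1.62 and Adgrg1 by 2.35 on the log2 scale. The 2 that rose were Gpr84, a receptor for medium-chain fatty acids (329 ± 107.2 to 3466 ± 567), and the ATP channel P2rx4 (0.73). P2ry6 (0.20), Fcrls (-0.23), Cd33 (-0.30) and Rhob (-0.49) were not called.

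Transcription factors of microglia split, 12 of 29 higher and 11 lower. Sall1, a factor that sets microglial identity, had 372, 478 and 509.6 without LPS and 115, 91.8, 129.97, 102.1 and 75.7 at 6 h (log2 -2.21 ± 0.17, adjusted p = 6.1e-14). Maf had 150.1, 202 and 209.9 and then 47.3, 48.6, 54.2, 57.1 and 50.1 (log2 -1.85 ± 0.17, adjusted p = 1.5e-11), and Mef2c went from 375 ± 57.9 to 157 ± 12.8. These 3 did not overlap between groups. Spi1, which encodes the lineage factor PU.1, rose by 0.37 with groups that overlapped, and Bhlhe41 (0.01) was not called. Factors of the inflammatory state rose: Cebpb by 2.79, Bhlhe40 by 2.50, Batf by 1.94, Cebpd by 1.82 and Runx1 by 1.20.

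Of 16 TGF-beta pathway genes, which sustain the resting state, 1 rose and 6 fell. Beside Tgfb1 and Tgfbr1 the inhibitory Smad7 fell by 0.69 and Smad6 by 0.90 (within post alone -0.12, adjusted p = 0.875, and not called with thinned reads), while Smad2 (0.08), Smad3 (-0.30) and Smad4 (0.14) were not called. Lysosomal genes fell in 16 and rose in 3 of 23. The regulators Mitf and Tfeb fell by 1.38 and 1.10 on the log2 scale, and the hydrolases Ctsf and Hexa by 1.31 and 1.15. Ctsc rose by 1.16 and the tetraspanin Cd63 by 1.45.

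**Figure D2:**
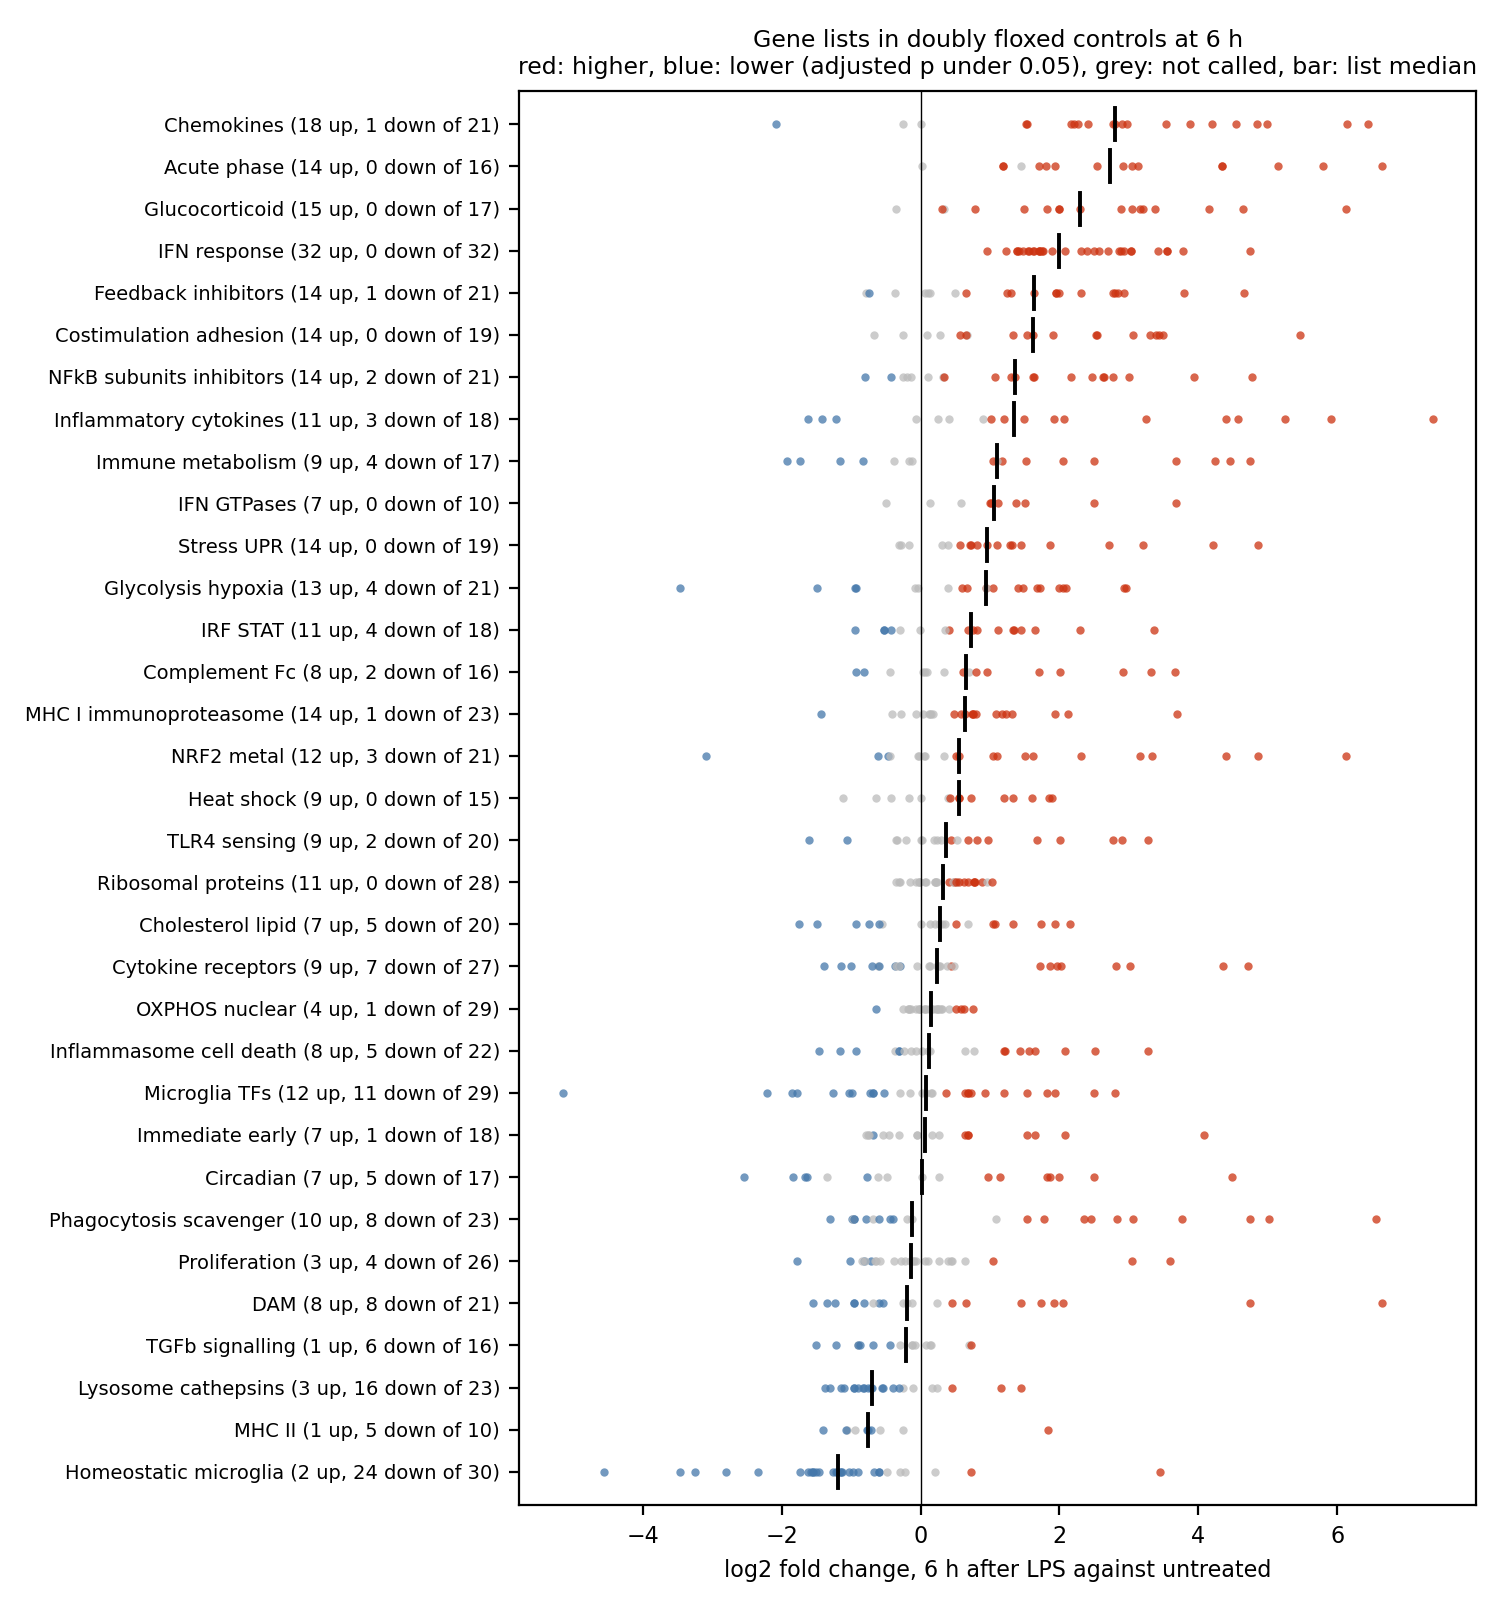
Log2 fold changes at 6 h against untreated, 1 point per tested gene and 1 row per gene list (marker lists of other cell types are not drawn), ordered by the list median (black bar); red and blue points were called higher and lower, grey points were not called. Among the lists drawn, chemokines have the highest median (2.80) and resting microglia genes the lowest (-1.18), while all 32 interferon response genes are red.

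Of 17 tested enzymes that make immune mediators, 9 were higher and 4 lower. Ptgs2, the inducible cyclooxygenase, was at 0 in all untreated libraries and had 22.02, 37.5, 12.1, 28.5 and 16.3 at 6 h, at least 37.8-fold higher against the floor of 3 reads over the group. Ptges, the prostaglandin E synthase, had 0, 0 and 1.69 and then 15.4, 39.6, 17.4, 24.03 and 17.5 (log2 4.24 ± 0.49, adjusted p = 3.7e-09), and Acod1, which makes itaconate, had 0, 1.96 and 6.33 and then 28.1, 51.2, 46.8, 45.1 and 17.5 (log2 3.68 ± 0.51, adjusted p = 1.7e-07). All 6 h values of these 3 were above the untreated range. Ch25h, which makes 25-hydroxycholesterol, rose by 4.74. Enzymes of other eicosanoids were lower: Hpgds fell by 1.93, Ltc4s fell by 1.74 and the constitutive Ptgs1 fell by 0.83.

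Glycolysis and hypoxia genes were higher in 13 and lower in 4 of 21. The glucose transporter Slc2a1 had 40.6, 45.7 and 54.2 without LPS and 402, 422, 386, 364 and 291 at 6 h (log2 2.96 ± 0.17, adjusted p = 2.1e-17). Lactate dehydrogenase (Ldha) had 126.1, 138.5 and 161 and then 691, 624, 504, 683 and 538 (log2 2.09 ± 0.13, adjusted p = 4.2e-16). Neither gene had overlapping groups. Pfkfb3, an activator of glycolytic flux, rose by 2.94, the lactate exporter Slc16a3 by 1.48 and Vegfa by 2.05. The hexokinases parted, with Hk2 higher by 0.66 (groups overlapped, and not called without the 2 neutrophil-rich libraries), while Hk1 and Hk3 fell by 0.94 and 1.49. Gapdh had 0.94 and was not called (adjusted p = 0.33).

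Nuclear genes of oxidative phosphorylation mostly did not pass the test: 4 rose and 1 fell of 29, fewer than the 42.7% called over all genes. The experiments differed in these counts: within the second alone 4 rose and 11 fell, and within post alone 12 rose and 0 fell. Those fits called 25.5% of all tested genes higher and 26.7% lower in the second, and 14.7% and 14.3% in post. Atp5b rose by 0.75 and Ndufb3 fell by 0.65 with overlap (within post alone -0.10, not called). Ribosomal protein genes rose in 11 of 28 and fell in none, by 0.41 to 1.03. Within the second experiment alone 9 rose and 5 fell (median 0.07), and within post alone 15 rose and 0 fell (0.54). Sterol genes were mixed, 7 higher and 5 lower of 20, against 21.6% and 21.1% of all tested genes. The synthesis gene Sqle rose by 1.94, and the sterol exporter Abcg1 fell by 1.75. Of 21 NRF2 and metal genes 12 rose and 3 fell. The cystine importer Slc7a11 had 0, 1.51 and 2.71 and then 97.5, 92.9, 58.9, 52.6 and 47.7 (log2 4.86 ± 0.46, adjusted p = 1.9e-11). The iron exporter ferroportin (Slc40a1) had 77.2, 112.9 and 149.8 and then 12.1, 6.86, 13.2, 10.5 and 18.6 (log2 -3.09 ± 0.33, adjusted p = 5e-10), while the iron importer Tfrc rose by 3.34 and ferritin heavy chain (Fth1) by 1.62. No 6 h library overlapped the untreated ones for Slc7a11 or Slc40a1.

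Glucocorticoid receptor targets, the genes that stress hormones switch on, were higher in 15 of 17 and lower in none, with a median of 2.29 on the log2 scale. Klf9 had 0, 1.96 and 7.53 without LPS and 87.0, 70.2, 49.99, 60.1 and 93.1 at 6 h (log2 4.65 ± 0.37, adjusted p = 2.5e-13). Fkbp5, a chaperone of the receptor, had 79.1, 188 and 369 and then 809, 811, 963, 715 and 986 (log2 2.29 ± 0.27, adjusted p = 3.7e-09). Zbtb16 had 0, 2.26 and 20.8 and then 95.2, 61.8, 78.4, 63.1 and 59.4 (log2 4.15 ± 0.52, adjusted p = 1.9e-08). The groups were apart for all 3, and the untreated libraries of the second experiment held more Fkbp5 and Zbtb16 than those of post. Per1 rose by 1.99, Tsc22d3 (GILZ) by 1.50 and Sgk1 by 0.79. Several members, such as Mt2, Cdkn1a and Cebpd, are also targets of other pathways. No promoter of 13 matched list genes held the kB consensus (23 promoters). The share over promoters of tested genes was 4.53%, from which 0 of 23 cannot be told apart.

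Clock genes changed without a common direction, 7 of 17 higher and 5 lower, against 21.6% and 21.1% of all tested genes. The sign of the list median (0.01) turned in 10 of 25 other settings. Nfil3, a repressor at D-box elements, had 0, 5.18 and 8.46 and then 123, 143, 145, 66.1 and 80.3 (log2 4.49 ± 0.34, adjusted p = 9.3e-14). Its counterpart activator Dbp had 39.5, 44.0 and 55.7 and then 11.01, 15.8, 9.47, 7.51 and 16.3 (log2 -1.84 ± 0.32, adjusted p = 8.2e-06). Their groups did not overlap and lay in opposite order. Hlf fell by 2.54 and Nr1d1 by 1.67, Cry1 rose by 1.86 and Per2 by 1.82, and the core activators Arntl (0.27) and Clock (-0.49) were not called. Times of day were not given in the sources used here.

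Stress genes of the endoplasmic reticulum and amino acid response rose in 14 of 19 and fell in none, led by Slc7a11, Gadd45b (4.21), Ddit4 (3.21) and Asns (2.71), while Ddit3 (-0.28) was not called. Heat shock genes rose in 9 of 15 and fell in none. Hsp90aa1 went from 52.1 ± 29.3 to 182 ± 50.2 and Hspd1 from 48.5 ± 11.3 to 179 ± 28.1, and Hspa1a (-0.16) and Hspa1b (-1.12) were not called. Of 26 cell cycle genes 3 rose and 4 fell, shares under those of all tested genes (21.6% and 21.1%). Ccnd2 rose from 4.52 ± 4.02 to 52.3 ± 11.3 and the inhibitor Cdkn1a from 93.2 ± 31.4 to 751 ± 72.5, while the inhibitor Cdkn1b fell by 1.79. Mki67 (0.07) and Top2a (-0.58) were not called. Of 22 inflammasome and cell death genes 8 rose and 5 fell, the falls near the 21.1% of all tested genes. Casp4, a cytosolic LPS sensor, rose by 2.08, Nlrp3 by 1.22 with overlap and the survival factor Mcl1 by 1.20, while the death factor Bcl2l11 fell by 1.46. Casp1 (-0.36) and Pycard (0.02) were not called.

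Immediate early genes, the transient first wave after a stimulus, gave 7 rises and 1 fall in 18 tested genes. Fos had 535, 784 and 874 without LPS and 296, 727, 678, 1286 and 1036 at 6 h, so that 1 library was below the untreated range, 2 within it and 2 above it (log2 -0.05 ± 0.33, adjusted p = 0.93). Fosb had 25.3, 47.8 and 77.8 and then 4.40, 41.2, 26.8, 84.1 and 78.0 (log2 -0.45 ± 0.62, adjusted p = 0.59). Jun fell by 0.68 with overlap (adjusted p = 0.027), a call lost without untreated library 4 or 6 or without 6 h library 1 or 2 (adjusted p up to 0.158). In Fos, Fosb and Jun alike, 6 h library 1 was the lowest and the post libraries 4 and 5 were the highest of the 6 h group. The members that rose most were Ier3 (4.08), Fosl2 (2.08) and Ier2 (1.64).

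The response was tested for a difference between the experiments. Of 10090 genes 139 (1.38%) differed (limma, interaction, adjusted p under 0.05), 87 (0.862%) with a higher and 52 (0.515%) with a lower response in post. Across the 5039 called genes the log2 fold changes within the experiments had a Pearson r of 0.909, and across all tested genes 0.778. The called genes were selected on these same libraries, and genes are not independent replicates. The linker histone Hist1h1c had 217, 201 and 169.9 in the untreated second libraries and 9.91, 11.6 and 12.6 at 6 h. In post it had 174, 177 and 171 and then 75.1 and 139 (difference of responses log2 3.22 ± 0.29, adjusted p = 1.7e-05). Its values thus stayed apart within each experiment, by far more in the second. Hist1h1e differed by 4.49, Rdm1 by 2.28, the sulfotransferase Sult1a1 by 1.79 and the mitochondrial ribosomal RNA mt-Rnr2 by 1.58. Rdm1, Sult1a1 and mt-Rnr2 had negative values within the second experiment and positive ones within post (-1.06 and 1.23 for Rdm1), and none of the 3 was called in the joint comparison.

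Among the list genes named here, the larger responses in post were those of Fkbp5 (1.53 in the second and 3.11 in post, adjusted p = 0.005) and Zbtb16 (2.70 and 5.96, adjusted p = 0.013), whose untreated post libraries were lower or at 0. Smaller in post were the rises of Gpr84 (3.94 and 2.87, adjusted p = 0.025), Il4ra (3.21 and 2.34), Nfkb2 (2.92 and 1.90) and Fn1 (5.21 and 3.35, adjusted p = 0.049). The fall of Gpr34 was also smaller in post (difference of responses log2 1.45). By list, 3 of 29 oxidative phosphorylation, 3 of 21 NRF2 and metal and 2 of 15 heat shock genes differed (1.38% of all). Of the ribosomal protein and interferon response genes 0 differed. List medians within the second experiment and within post were -0.27 and 0.66 for immediate early genes, and -0.20 and 0.58 for oxidative phosphorylation. They were 0.26 and 1.00 for heat shock, and 2.17 and 2.00 for the interferon response. For the monocyte markers they were 2.82 and 0.58 over the 9 tested in the joint fit, and 3.39 and 2.37 over the 5 that passed the filter in each experiment alone, 3 of them higher in each. Some lists had no member called lower in the joint fit. Among these lists, besides ribosomal protein genes, the second experiment alone called 2 heat shock genes, 1 glucocorticoid target and 1 stress list gene lower. Within post alone this held for 1 costimulatory or adhesion gene. Of 7 neutrophil markers tested within post alone 6 were called lower. Calls lost within post alone, beside those named with their genes, were those of Ikbkg (-0.63), Rela (0.29), Irak3 (1.60), Il15 (-0.69), Ccl24 (-1.63), Ifit2 (1.04), Ifit3b (2.01), Pias1 (-0.79), Spi1 (0.22), Hp (1.98), Ctsh (-0.40), Mitf (-0.93), Hk1 (-0.82), Hk2 (0.31), Per2 (1.47), Jun (-0.28), Otulin (-0.43) and Hist1h1e (-0.15). The second experiment also had the deeper libraries, 1182316 to 2041325 reads against 583560 to 964473, and the part of depth was not tested gene by gene. With reads thinned to the smallest library 59 genes differed, and without untreated library 4 and 6 h library 3 the count was 56. Single libraries moved the count as well, to between 38 (without 6 h library 2) and 211 (without 6 h library 4). It was 48 without untreated library 1 or 2, 57 without untreated library 3, 91 without untreated library 6, and 89, 66 and 70 without 6 h libraries 1, 3 and 5.

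**Figure D3:**
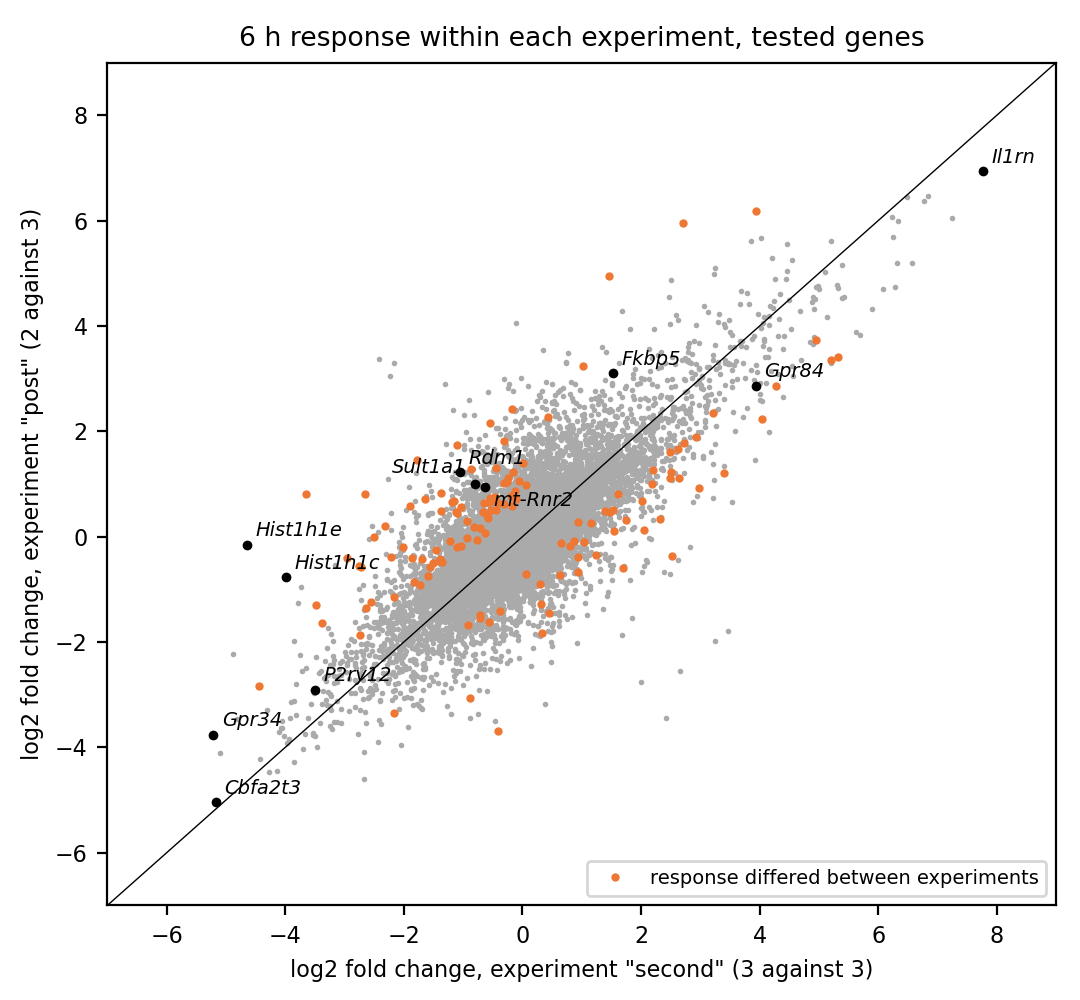
Log2 fold change at 6 h within experiment "second" (x axis, 3 against 3 libraries) and within "post" (y axis, 2 against 3), 1 point per tested gene, with the line of equality. Orange points, with the named genes apart from Il1rn, P2ry12 and Cbfa2t3, are the 139 genes whose response differed between experiments; Hist1h1c and Hist1h1e lie far above the line, while Cbfa2t3 and P2ry12 lie near it.

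In the double mutants both floxed genes can be deleted in cells that express the Cre. Il10ra was 27.0 ± 10.7 in untreated and 23.5 ± 8.79 in 6 h double mutants, against 483 ± 42.4 and 340.3 ± 87.6 in the controls. The response differed from that of the controls for 1 of 11800 genes (0.00847%; limma, adjusted p under 0.05), and 707 had an unadjusted p under 0.05. That gene was Tnf, a targeted gene: it went from 3.83 ± 5.38 to 10.9 ± 11.4 in double mutants and from 14.5 ± 7.51 to 399 ± 162 in controls (difference of responses log2 -3.36 ± 0.60, adjusted p = 0.021). The call was lost with a pseudocount of 0.5 (log2 -2.98, adjusted p = 0.233), in edgeR (-3.97, 0.371), in DESeq2 (-3.73, 0.0686) and without the experiment term (-3.11). It was also lost without untreated control library 1, 2 or 5, 6 h control library 2 or 4, untreated double mutant library 1 or 2, or 6 h double mutant library 3, 5 or 6, and 2 genes were called without 6 h double mutant library 4. Without untreated double mutant library 4, whose column name holds the word "mistake", 1 gene was called. Untreated double mutant libraries 1 and 5 stood apart in Cx3cr1 (1162 and 1155, against 2929 to 3102 in the others) and P2ry12 (2608 and 3567, against 4919 to 5459). Mitochondrial genes took 0.0948% of library 1, against 0.959% to 1.27% of the others. Without library 1 the test called 0 genes (758 at unadjusted p under 0.05), and without library 5 it called 1 (886). The part of these libraries was not tested further. Il12b had 0.72 and Irf7 1.18 as the difference of responses, neither called (adjusted p = 0.94 and 0.5), and Fkbp5 had -0.01. A difference that missed the threshold does not show that the responses were alike.

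By 48 h many of these values had moved again. Between 48 h and 6 h, 4718 of 11800 genes differed (40%), 2511 higher at 48 h and 2207 lower; this comparison shares the 6 h libraries with the one above. All 15 called glucocorticoid targets and all 15 called NF-kB list genes were lower at 48 h, and of the chemokines 13 were lower and 1 higher. Il1rn was 14.3 ± 6.05 at 48 h, Cd14 674 ± 107.3 and Fkbp5 187 ± 77.7, where the untreated means were 2.32 ± 1.95, 832 ± 67.9 and 199 ± 118. Other induced genes stayed high or went further: Ccl5 was 564 ± 131.7, Saa3 5357 ± 2633 (log2 0.98 ± 0.29, adjusted p = 0.0056 against 6 h) and C4b 393 ± 44.3. Of 32 interferon response genes 5 were lower and 6 higher at 48 h than at 6 h, shares at or under those of all tested genes (18.7% and 21.3%). Lysosomal genes were higher in 20 of 23 and lower in 0, as with Ctsh at 2446 ± 204 against 619 ± 105.9 at 6 h. Cell cycle genes were higher in 21 of 26, with Tk1 going from 3.86 ± 2.73 to 88.3 ± 42.4. Resting microglia genes were higher in 14 of 30, yet P2ry12 stood at 1456 ± 233 against 4992 ± 386 without LPS. The lowest p-values belonged to Pld4 (2.81), Cd14 (-3.24), Slc2a1 (-3.04), Rnf169 (-2.66), Slamf9 (2.78) and Lair1 (2.10).

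**Figure D4:**
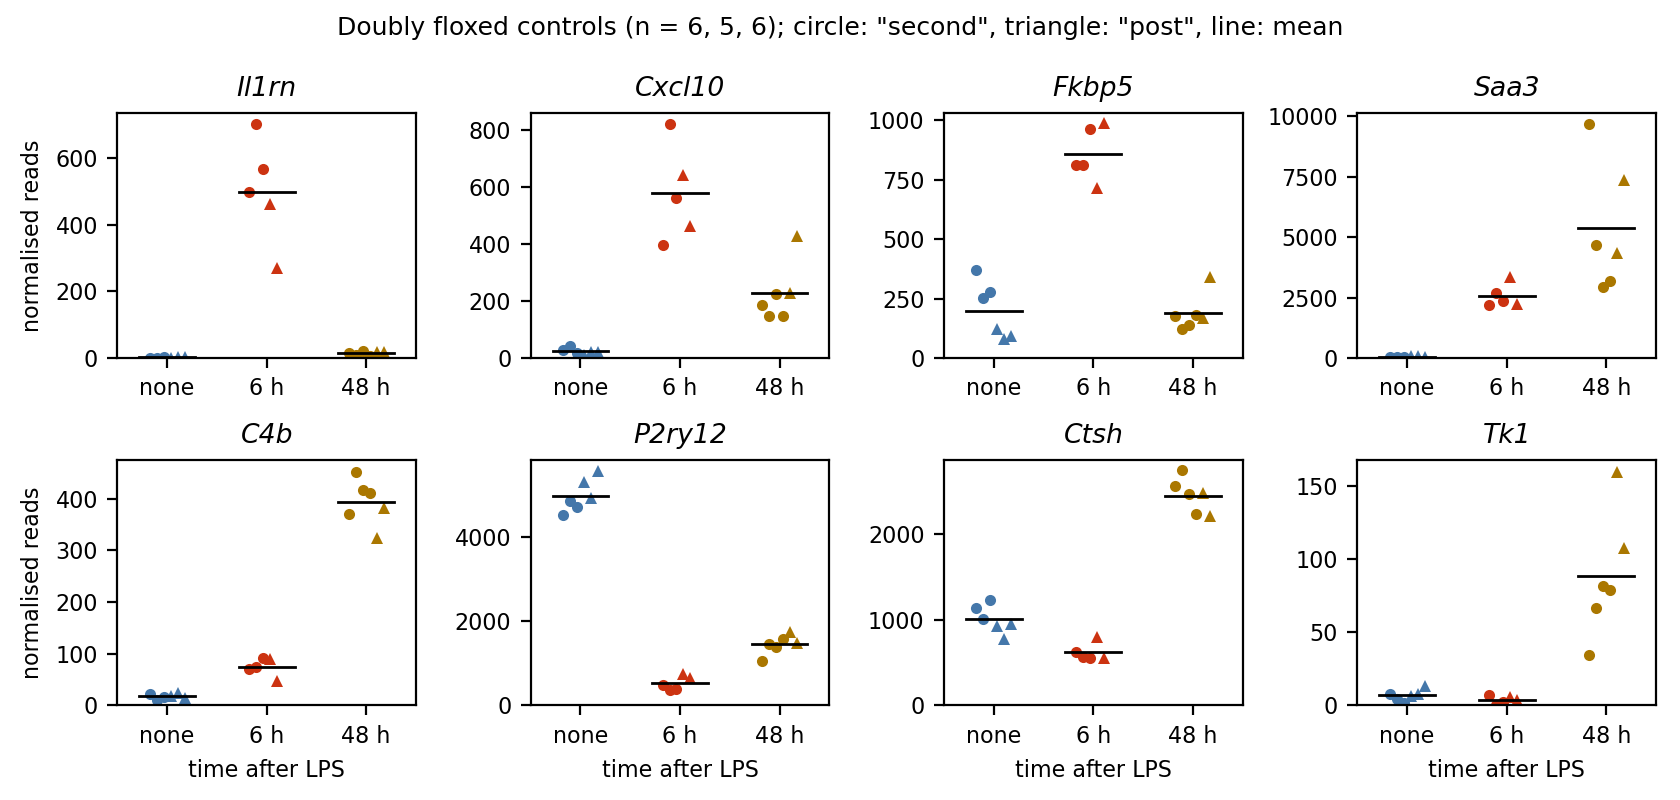
Normalised reads of 8 genes in doubly floxed controls without LPS, at 6 h and at 48 h (n = 6, 5 and 6 libraries; linear axes from 0; line: mean). Il1rn and Fkbp5 are high at 6 h only, Saa3 and C4b are higher at 48 h than at 6 h, P2ry12 stays below its untreated level, and Ctsh and Tk1 are above theirs at 48 h.

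The same contrast in singly floxed controls stands in another table that was normalised separately, so values are set side by side and not tested against each other. There 4398 of 10932 genes were called (40.2%), 2184 higher (20%) and 2214 lower (20.3%). Of its experiments 1 held both groups (3 untreated and 3 at 6 h), while the other 3 untreated and the other 3 libraries at 6 h came from different ones. The count was 5324 without the experiment term and 3343 within the shared experiment alone. Over 10826 genes tested in both, the log2 fold changes had a Pearson r of 0.875 and a Spearman rho of 0.829. Higher in both were 1735 genes, 71.4% of the doubly floxed calls with a value and 79.8% of the singly floxed ones. Lower in both were 1718 (70.9% and 77.9%), and 3 genes were lower in doubly and higher in singly floxed controls, with 0 the other way round. Il1rn had 7.37 in doubly and 6.82 in singly floxed controls, P2ry12 -3.24 and -2.88, and Isg15 3.79 and 4.08.

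The immediate early genes had different values in those animals. Of 18 tested, 16 were higher in singly floxed controls at 6 h and none lower, with a median of 2.18, against 7, 1 and 0.06 in doubly floxed controls. The doubly floxed values themselves depended on the experiment. Within the second alone 7 of 17 tested were higher and 2 lower, and within post alone 10 of 18 were higher and 1 lower. Medians over the 18 genes were -0.27 and 0.66. Fos went from 525.7 ± 89.7 to 2019 ± 1082 in singly floxed controls, against 745 ± 133.8 to 805 ± 376 in doubly floxed ones. Within the experiment that held both groups Fos ran from 432 to 509 without LPS and from 2104 to 3441 at 6 h; the other untreated libraries had 478 to 653 and the other 6 h libraries 956 to 1312. Within that experiment 16 of 18 immediate early genes were also higher and none lower (median 2.28), and without the experiment term the median was 1.73. Fosb went from 24.1 ± 7.31 to 182 ± 141, against 49.5 ± 21.4 to 46.9 ± 33.9, and Dusp1 rose by 4.07 against 2.00. For the glucocorticoid targets the medians were 2.83 in singly and 2.29 in doubly floxed controls.

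**Figure D5:**
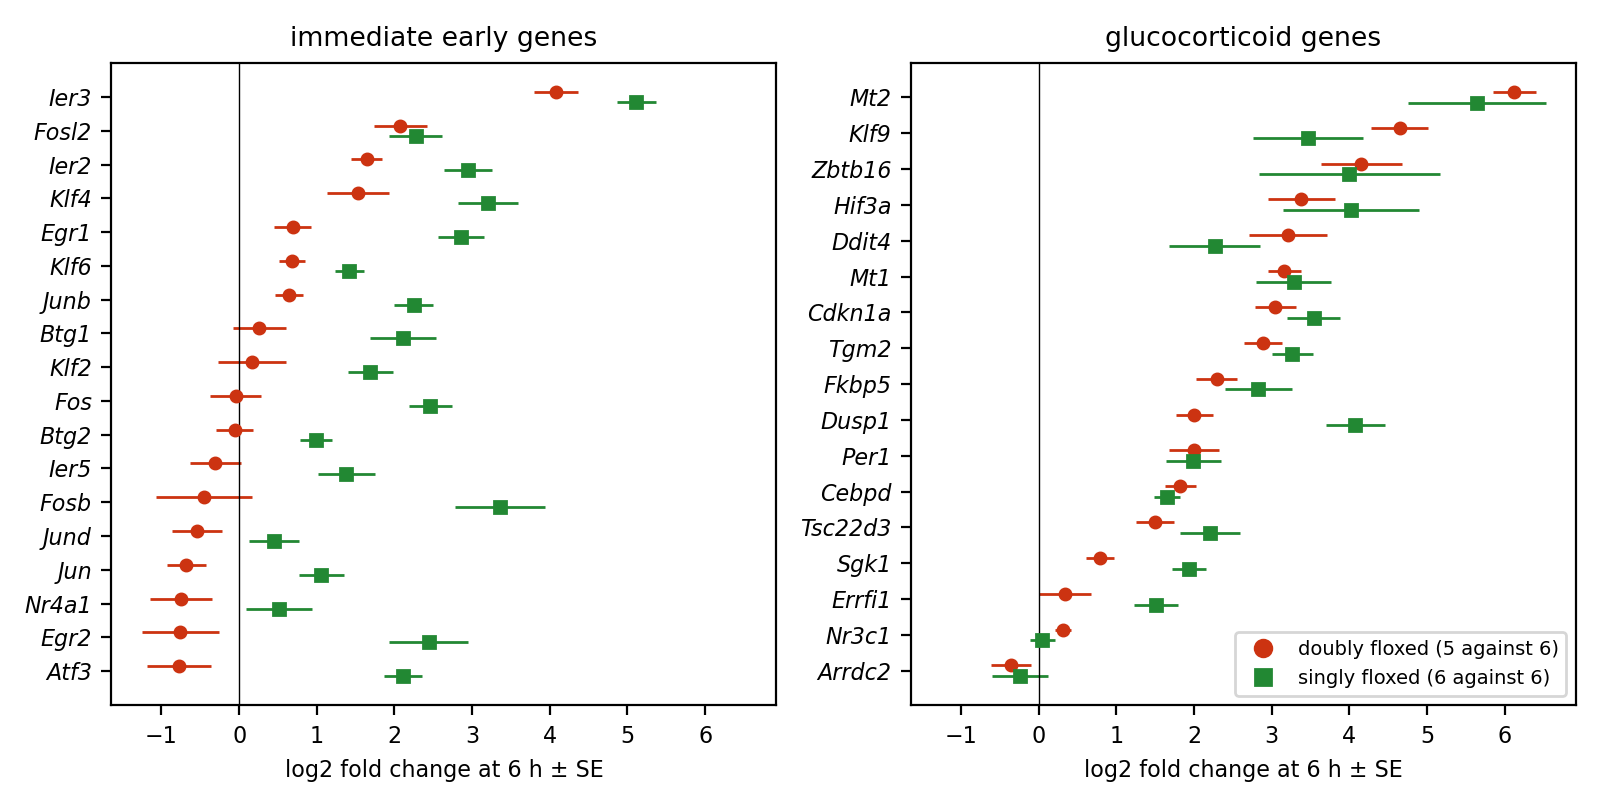
Log2 fold change at 6 h against untreated, with SE, for 18 immediate early genes (left) and 17 glucocorticoid targets (right) in doubly floxed (red circles, 5 against 6 libraries) and singly floxed controls (green squares, 6 against 6). On the left the green points lie to the right of the red ones for all 18 genes, with Fos at 2.46 and -0.05; on the right the medians are 2.83 (green) and 2.29 (red).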

How the data were processed

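RNA was measured in sorted brain microglia by MARS-seq, per the labels. The deposited signal is a normalised read number for each gene in each library, as named in the table headers. Reads were mapped to mm10, per the submitters' processing notes; the sources used here name no aligner, counter or scaling method. The smallest step of a column is what 1 read is worth, and 100% of values came out as whole multiples of it (tolerance 0.01), so depth is known: 583560 to 2041325 reads in the 11 libraries. Groups came from the labels; 1 column of the table was not mapped to a sample and not used. Of 13408 genes 18 with names turned into dates were left out, and those reaching a value of 5 in 4 or more libraries were tested (11800).

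The main test was limma 3.58.1 with trend (R 4.3.3) on log2(value + 1), which understates changes of low genes, with additive terms for group and experiment over the 37 assigned libraries of the double mutant table, two-sided, Benjamini-Hochberg over all tested genes. The interaction used the 11 libraries, and the singly floxed comparison 22 libraries of its own table. Alternatives were pseudocounts of 0.5 and 5, other filters, quantile normalisation, edgeR 4.0.16 and DESeq2 1.42.0 on the recovered reads, fewer libraries, no experiment term and a replicate block; leaving out untreated library 4 and 6 h library 3, thinning reads to 583560 and the singly floxed fit within 1 experiment were added after seeing the data. Untreated and 6 h libraries share numbers 1 to 5, nested in the experiments: deviations of same-numbered pairs correlated at 0.131 to 0.226, and at -0.153 to 0.0964 once the experiment was removed, so this pairing is the shared experiment already in the fit. Scripts were tested on simulated data.

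Genes were named by a rule: the 12 largest rises and 12 largest falls among called genes with a log2 change of at least 1, a mean of at least 20 and groups that do not overlap, the targeted and Cre loci with Il10rb, the 6 lowest p-values of each difference test, and list members. The lists, and the single libraries described apart from their group, were chosen with earlier results of these data known. The 11 libraries themselves were chosen by title. A gene at 0 throughout a group was set against a floor of 3 reads over that group, and such floors cover counting error only. The 95% interval was built from limma's standard error, which rests on the spread between libraries. Promoter windows are RefSeq sequences of GRCm38.p6; 8686 of 11800 tested genes matched.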

Additional observations from a re-analysis of the deposited data

Results flagged for a closer look

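A value was singled out where the highest or lowest library of its group stood further from the next one, relative to the range of the group, than Dixon's 95% limit. This held for 43 of 520 groups of values screened for the genes named above. For normally distributed values chance alone singles out about 1 in 20 groups, a rate that does not hold for genes of few reads. The 6 h library 1 stood apart from the rest of its group in normalised reads of Socs1 (17.6), Cd86 (250), Cebpb (1248), Gapdh (327), Tfrc (110.7) and Clock (18.7). The 6 h library 3 stood apart from the rest of its group in normalised reads of Plet1 (244), Lcn2 (953), Hp (150), Ly6c2 (71.6), S100a8 (2030) and S100a9 (2429). The 6 h library 4 stood apart from the rest of its group in normalised reads of Tspan18 (10.5), Cxcl13 (109.7), Ccl8 (4.51), Clec4d (16.5), Axl (42.1), Spi1 (924), Ddit3 (90.1) and Ctsh (802). The 6 h library 5 stood apart from the rest of its group in normalised reads of Myo18b (8.15), Thrsp (18.6), Il1a (50.05) and P2rx4 (129). Untreated library 2 stood apart from the rest of its group in normalised reads of Gapdh (169.9). Untreated library 4 stood apart from the rest of its group in normalised reads of Sall1 (372), Ccr7 (1.69), Ccl24 (6.77), Itgb2 (409.6), Csf1 (52.5), Lcn2 (45.7), Hp (6.77), Ptges (1.69), Per1 (157), Hspa1a (552), Hspa1b (580.5) and Bcl2l11 (66). In that library 1 read is worth 1.69, so its Ccr7 and Ptges values are 1 read each, and Hp and Ccl24 rest on few reads. Untreated library 5 stood apart from the rest of its group in normalised reads of Traf6 (35.8), H2-DMa (166), Atp5b (376) and Klf9 (7.53). Untreated library 6 stood apart from the rest of its group in normalised reads of Ifitm3 (49.1) and Sgk1 (826).

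The 6 h response differed between the experiments, by the interaction test of limma, for the following named genes, as log2 response in post minus that in second: Gpr34 (1.45), Hist1h1c (3.22), Rdm1 (2.28), Hist1h1e (4.49), Sult1a1 (1.79), mt-Rnr2 (1.58), Nfkb2 (-1.02), Il4ra (-0.87), Fn1 (-1.86), Gpr84 (-1.08), Fkbp5 (1.58) and Zbtb16 (3.26). The response of Tnf differed between double mutants and controls by -3.36 on the log2 scale, the targeted gene and the only one called in that test with the settings of the report.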

How the results depend on the processing

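The count of genes changed at 6 h stayed within 1.5 times of 5039 in every setting tried apart from the post experiment alone (3121 genes, 2 against 3 libraries). It was 4538 to 4824 without single libraries, 5354 in edgeR, 5329 in DESeq2, 4989 with quantile normalisation (2394 higher and 2595 lower), 4252 with thinned reads and 4480 without the library of most neutrophil marker reads in each group (untreated library 4 and 6 h library 3). With a replicate block it was 4790 of 10090 genes, 4410 of them shared with the main calls, and it was fitted for this comparison alone; of the genes named above it ended the call of Otulin (-0.39, adjusted p = 0.0669). Of 210 called genes named above, 184 kept their call and direction in each of the 25 settings that tested them. A setting whose filter left a gene out was not counted for that gene. The within-experiment values turned the sign of the joint value for Sult1a1 (-0.79) and mt-Rnr2 (-0.63) in second alone, and for Rdm1 (1.23), Fos (0.65), S100a8 (-1.79) and S100a9 (-1.98) in post alone; the cause was not tested.

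The response by experiment had 139 genes, 70 without a filter, 59 with thinned reads and 56 without that pair, and 38 to 211 without single libraries. The double mutant difference had 1 gene and 0 with a pseudocount of 0.5, in edgeR, in DESeq2 and without the experiment term, and 0 to 2 without single libraries. For 48 h against 6 h the counts without single libraries were 4188 to 4599, and for singly floxed controls 3592 to 4384. The shallow post libraries, with values of 1 read between 1.16 and 1.88, limit what can be seen in genes of few reads.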
